A study of Mus musculus with 7 samples.

Results

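The effect of dietary glucosylceramide (GC) on skin transcripts was compared between detergent-treated and untreated skin, as the log2 ratio of GC-fed to control-fed skin after sodium dodecyl sulfate (SDS) minus that before SDS. Every gene whose probe was not a control and stood above background was a member, which gave 17083 of the 27670 gene and probe names on the array. Dorsal skin of male hairless HR-1 mice aged 5 weeks was measured on 7 Agilent whole mouse genome arrays with 2 colours. After SDS, 4 arrays compared skin of mice fed AIN-93G diet with GC for 14 days with skin of mice fed the same diet without GC, both treated with 10% SDS for 5 minutes a day on 2 days. Before SDS, 3 arrays compared GC-fed with control-fed skin at 12 days of diet, with no SDS. The labels call the arrays biological replicates without saying whether each sample was 1 animal or a pool, so p-values measure the spread between these samples. The GC-fed sample carried Cy3 on after-SDS arrays 1 and 2 and on before-SDS array 1, and Cy5 on after-SDS arrays 3 and 4 and on before-SDS arrays 2 and 3. All 4 after-SDS arrays lay on 1 slide, scanned once, and all 3 before-SDS arrays on a second, so SDS, slide and the longer diet cannot be told apart in the difference.

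GC consists of ceramide with a glucose head group. Keratinocytes make it, secrete it from lamellar bodies and turn it into the ceramides that, with cholesterol and free fatty acids, seal the outermost layer of the epidermis. SDS strips lipids from this layer and irritates the skin, which is followed by inflammation, keratinocyte proliferation and renewal of the barrier. Beneath the epidermis lie dermis with mast cells, macrophages and vessels, a layer of fat cells and a thin sheet of skeletal muscle.

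No gene passed the test of the difference in diet ratio between skin after and before SDS in limma's fit (0% of 17083 genes with an adjusted p under 0.05; the lowest adjusted p rounded to 1). At an unadjusted p under 0.05 there were 207 genes, 1.21% of those tested, where 854 would be counted if every gene had a 5 in 100 chance. Of these, 104 had a higher ratio after SDS (0.609%) and 103 a lower one (0.603%). Values below are therefore descriptions of the arrays, and no gene named here passed the test. The median standard error (SE) of a difference was 0.13 on the log2 scale, and the median 95% interval reached 0.31 to either side. The median difference over all genes was 0.00 on the log2 scale (-0.0043).

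The arrays themselves differed in how widely the diet ratios were spread over genes. This spread also holds array noise and differences between samples, and their part in it was not tested. The standard deviation (SD) of the log2 ratios over all genes was 0.283, 0.33, 0.406 and 0.306 on after-SDS arrays 1 to 4, against 0.176, 0.247 and 0.195 on before-SDS arrays 1 to 3. Every after-SDS array was wider than every before-SDS array, with means of 0.331 ± 0.0534 (SD, n = 4) and 0.206 ± 0.0365 (SD, n = 3; exact two-sided permutation test over arrays, p = 0.0286, the smallest that 35 splits allow). The share of genes with a ratio beyond 0.5 in either direction was 7.22%, 9.61%, 16.4% and 7.94% after SDS and 1.95%, 3.2% and 2.57% before SDS. The interquartile range did not separate the groups, at 0.14, 0.33, 0.426 and 0.297 after SDS and 0.171, 0.23 and 0.172 before SDS (exact two-sided permutation test, p = 0.2). Without background correction the mean SDs differed by 0.122 (exact two-sided permutation test, p = 0.0571), and with 1 array left out the smallest p that the splits allow is 0.0667 or 0.1.

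**Figure D1:**
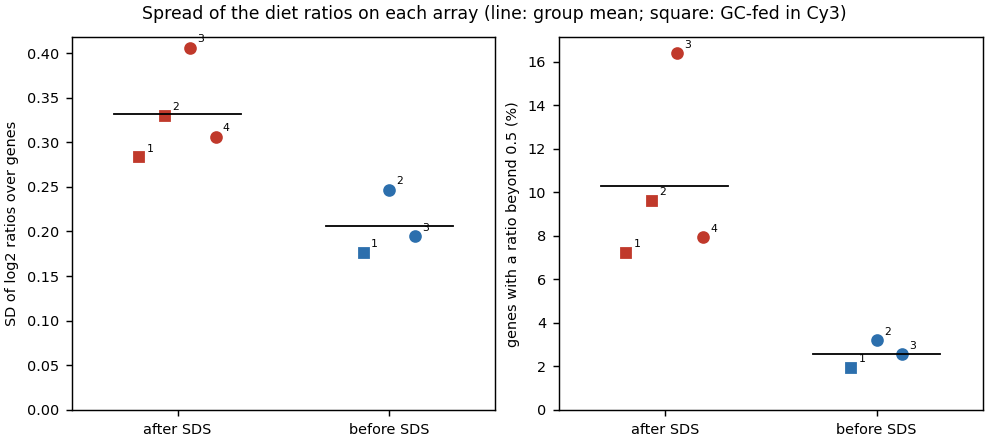
Spread of the diet ratios (log2, GC-fed over control-fed) over 17083 genes on each array, as SD (left, log2 units) and as the percentage of genes with a ratio beyond 0.5 (right); points are arrays with their replicate number, squares have the GC-fed sample in Cy3, circles in Cy5, and lines are group means. All 4 after-SDS arrays lie above all 3 before-SDS arrays in both measures.

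The wider ratios after SDS did not run the same way on all 4 arrays. Across genes, whose values are not independent, the correlation r of after-SDS array 4 was -0.499 with array 1, -0.622 with array 2 and -0.302 with array 3, while arrays 1 to 3 had r of 0.315 to 0.497 among themselves. Arrays 3 and 4 had the same dye orientation. The labels state the dyes of each array, so the labelled direction was kept throughout. The cornified envelope, suprabasal, macrophage, cytokine and collagen lists are given below without after-SDS array 4 and with its sign turned. Other lists moved too. The median difference of erythrocyte markers was -0.204 with array 4, -0.94 without it and -0.87 with its sign turned. Neutrophil markers had -0.0389, -0.434 and -0.562 in that order. Without array 4 the epidermal lipid list moved from 0.0844 to 0.34 and the cholesterol list from 0.0683 to 0.313. Before SDS, r was -0.404 between arrays 1 and 2 and -0.181 between arrays 1 and 3, which had opposite dye orientations. A dye term was kept for every gene, and differences are also given within the arrays that had the GC-fed sample in Cy3 and within those that had it in Cy5. Before SDS only array 1 had the GC-fed sample in Cy3, so each difference within the Cy3 arrays rests on that array. Leaving it out gives the same difference as within the Cy5 arrays, so the 2 values are not separate checks. No gene passed for the dye term (lowest adjusted p = 0.292).

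Few genes had ratios that separated the after-SDS from the before-SDS arrays on every array. The 4 after-SDS ratios lay above all 3 before-SDS ratios for 209 genes (1.22%) and below them for 179 genes (1.05%). All after-SDS ratios were above 0 and all before-SDS ratios below 0 for 68 genes, and the reverse held for 41. All 7 ratios were above 0 for 53 genes and below 0 for 93. A stricter rule asked for ratios beyond 0.25 on every array of a group and within 0.25 on every array of the other. It found 1 gene with a higher ratio with SDS only, Wwc1 (0.00585%), and 5 with a lower ratio with SDS only, Gpd1, BC034076, Hspb3, Ghr and Cma1 (0.0293%). No gene (0%) had a ratio without SDS only. Slit3 was the 1 gene that turned with both group means beyond 0.25 (0.00585%), and Ifi27l2a the 1 gene with all 7 ratios beyond 0.25 in the same direction (0.00585%). BC034076 kept the file's name and was outside the rule for named genes.

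**Figure D2:**
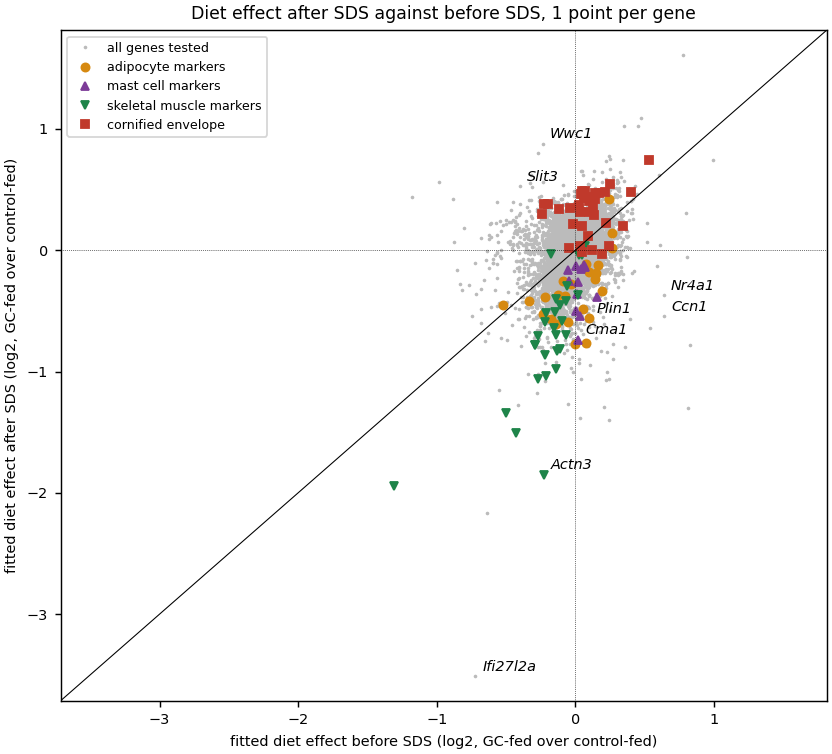
Fitted diet effect after SDS (vertical) against that before SDS (horizontal), both as log2 GC-fed over control-fed, with 1 point per gene (17083 genes), 4 gene lists in colour, 8 genes named and the line of equality. Adipocyte, mast cell and skeletal muscle markers lie mostly below the line and cornified envelope genes mostly above it; Wwc1 stands at 0.88 after SDS and -0.23 before SDS.

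Wwc1 had the smallest p of all named genes with a higher ratio after SDS. It encodes KIBRA, a scaffold of the Hippo pathway, which restrains growth of epithelia by holding back YAP and TAZ. Its log2 ratio was 0.39, 0.72, 1.39 and 1.01 on the after-SDS arrays and -0.14, -0.17 and -0.21 on the before-SDS arrays. All 4 values with SDS were above 0 and all 3 without it slightly below, and the difference was 1.11 (SE 0.19, 95% interval 0.66 to 1.56; limma, adjusted p = 0.9998). Within the Cy3 arrays the difference was 0.69 and within the Cy5 arrays 1.39, and without each array in turn it lay between 0.947 and 1.39. Because it leads the genes that were higher, the 250 bases before its annotated start are shown, from RefSeq on GRCm38.p6, chr11:35980528-35980777, minus strand, with no capitals because none of the motifs searched was found.
Wwc1: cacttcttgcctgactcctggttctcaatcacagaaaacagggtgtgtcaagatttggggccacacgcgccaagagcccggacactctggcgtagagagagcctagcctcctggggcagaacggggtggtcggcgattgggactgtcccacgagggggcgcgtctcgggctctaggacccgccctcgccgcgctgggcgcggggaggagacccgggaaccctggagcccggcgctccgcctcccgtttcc
The motifs, searched on both strands, were AGGTCA (a nuclear receptor half-site, in 14% of 32851 RefSeq promoter windows of this length), TGACG (a cAMP response element half-site, 17.8%), TATAAA (12.4%) and CACGTG (6.02%); they do not hold one another. Promoter windows were found for 91 of the 127 named genes. These letters are a description of the windows only.

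Other genes with a higher ratio after SDS were of mixed function. Slit3, a secreted guidance ligand of Robo receptors, had ratios of 0.08, 0.13, 0.70 and 1.19 after SDS and -0.38, -0.04 and -0.49 before SDS. The groups did not overlap for that probe (difference 0.92, SE 0.21; limma, adjusted p = 0.9998), but a second Slit3 probe gave -0.26 (SE 0.17). Unc45a, a chaperone for myosin, had 0.69, -0.04, 0.30 and 0.39 after SDS and -0.29, -0.45 and -0.70 before SDS (difference 0.80, SE 0.19). Zfp68, a zinc finger protein, had 0.29, 0.24, 0.43 and 0.07 after SDS and -0.49, -0.07 and -0.11 before SDS (difference 0.51, SE 0.14), and its second probe gave 0.24 (SE 0.15). Both genes had no overlap between the groups. Emd, which encodes the inner nuclear membrane protein emerin, had ratios of 0.36, 0.51, 0.21 and 0.03 after SDS and -0.12, -0.15 and -0.03 before SDS (difference 0.35, SE 0.12). Cd163l1, a member of the scavenger receptor family with cysteine-rich domains, had a difference of 0.49 (SE 0.17). For Asap2, an Arf GTPase-activating protein, the chosen probe gave 0.48 (SE 0.14) and another -0.01 (SE 0.14), and for Ogfrl1 the chosen probe gave 0.74 (SE 0.24) and another -0.05 (SE 0.13). Cyp3a13, a cytochrome P450, had a difference of 0.70 (SE 0.24) that rested on a ratio of 0.90 on after-SDS array 3 and of -0.99 on before-SDS array 1. Without after-SDS array 4, Cyp3a13 passed (0.98, SE 0.11; limma, adjusted p = 0.0289).

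Genes of fat cells had lower GC-fed over control-fed ratios after SDS than before. Of 24 tested members of the adipocyte marker list, 22 had a difference below 0 (51.5% of all genes did), the median difference was -0.29 (all genes -0.0043), and 8 were lower at an unadjusted p under 0.05 (0.603% of all genes). That count was 5 without after-SDS array 3 or before-SDS array 2, and 5 to 11 without each array in turn. None (0 of 24) passed after adjustment, and 9 of 24 had ratios below 0 on all 4 after-SDS arrays (4.62% of all genes). Of the 10 genes with the smallest p for a lower ratio, Pcx, Gpd1, Plin1 and Agpat2 belong to this list, and 17 of the 24 were lower both within the Cy3 and within the Cy5 arrays (22.6% of all genes). The list's median difference was smaller within the Cy3 arrays, at -0.0943, than within the Cy5 arrays, at -0.423. The list was chosen with earlier results of these data known.

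Gpd1, the cytosolic glycerol-3-phosphate dehydrogenase that supplies the backbone of triglycerides, had ratios of -0.26, -0.38, -0.80 and -0.51 after SDS and 0.23, -0.13 and -0.11 before SDS. All after-SDS ratios lay below all before-SDS ratios, with a difference of -0.54 (SE 0.11, 95% interval -0.80 to -0.29; limma, adjusted p = 0.9998) and nearly the same value within both dye orientations (-0.55 in Cy3, -0.54 in Cy5). Without each array in turn it lay between -0.619 and -0.47. A second Gpd1 probe gave -0.35 (SE 0.10). Plin1, the perilipin that coats lipid droplets, had ratios of -0.20, -0.38, -1.11 and -0.54 after SDS and 0.31, -0.03 and -0.23 before SDS. Its groups touched, since the ratio of after-SDS array 1 lay above that of before-SDS array 3 (difference -0.66, SE 0.16; -0.60 in Cy3 and -0.70 in Cy5).

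The other list members among those 10 genes were enzymes. Pcx, the pyruvate carboxylase that feeds citrate to fatty acid synthesis, had ratios of 0.03, -0.09, -0.62 and -0.68 after SDS and 0.43, 0.03 and -0.17 before SDS (difference -0.53, SE 0.10). Within each dye orientation its after-SDS ratios were the lower ones (-0.46 in Cy3, -0.58 in Cy5). Agpat2, an acyltransferase of glyceride synthesis, had 0.10, -0.04, -0.41 and -0.60 after SDS and 0.46, -0.12 and -0.20 before SDS (difference -0.38, SE 0.10; a second probe -0.46, SE 0.09). The ratios of Agpat2 overlapped between the groups, and so did those of Pcx. In both genes the Cy3 arrays of each group had higher ratios than its Cy5 arrays. Before SDS the Cy3 side was array 1 alone, so dye and that array cannot be told apart there. The dye term did not pass for either gene (limma, adjusted p = 0.2922). Fasn, fatty acid synthase, had a difference of -0.50 (SE 0.14; a second probe -0.54, SE 0.12), and Scd1, the stearoyl-CoA desaturase of sebaceous glands and fat, one of -0.50 (SE 0.19). The regulator Pparg differed by -0.29 (SE 0.11), the glycerol channel Aqp7 by -0.27 (SE 0.11) and the retinol carrier Rbp4 by -0.36 (SE 0.15). Fasn, Scd1, Aqp7 and Rbp4 are not in the adipocyte list. Fasn, Scd1 and Pparg are sebaceous gland list members. Of its 16 tested genes, 9 had a difference above 0 (48.5% of all genes did), with a median of 0.0567. Rbp4 came from the retinoid list (11 of 19 above 0, median 0.0355). Aqp7 came from the water and hyaluronan list (6 of 14 above 0, median -0.0191). Thrsp, a lipogenic protein, differed by -0.84 (SE 0.24) and the hormone leptin, Lep, by -0.77 (SE 0.26); both were singled out after their values were seen.

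Adipoq, the fat cell hormone adiponectin, had ratios of -0.71, -0.41, -1.13 and -0.12 after SDS and -0.08, 0.14 and -0.24 before SDS. The interval of its difference included 0 (-0.54, 95% interval -1.14 to 0.06). Cidea and Pck1 were the 2 list members with a difference above 0, at 0.18 (SE 0.29) and 0.07 (SE 0.32). Outside the list, Mrap, a melanocortin receptor accessory protein first described in fat cells, had ratios of -0.24, -0.37, -0.84 and -0.50 after SDS and 0.07, 0.23 and -0.02 before SDS (difference -0.62, SE 0.15). Cdo1, the cysteine dioxygenase of taurine synthesis, had -0.57, -0.35, -1.01 and -0.49 after SDS and 0.08, 0.34 and 0.15 before SDS (difference -0.82, SE 0.17). Aldh1l1, a folate enzyme, had -0.17, -0.28, -0.71 and -0.41 after SDS and 0.32, 0.00 and -0.07 before SDS (difference -0.53, SE 0.11). In all 3 genes the groups did not overlap. These are whole-skin RNAs, in which fewer cells of a type and less RNA per cell cannot be told apart.

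The median ratio over the adipocyte list was -0.163, -0.361, -0.776 and -0.388 on the after-SDS arrays and 0.0622, 0.0455 and -0.19 on the before-SDS arrays. It was lowest on after-SDS array 3, and after-SDS array 1 lay just above before-SDS array 3. Without each array in turn the median difference lay between -0.423 and -0.225, and with the sign of after-SDS array 4 turned it was -0.178. Skeletal muscle markers had the same sign: 28 of 30 had a difference below 0 (51.5% of all genes did) and the median difference was -0.487. Their median ratios were -0.964, -0.18, -1.15 and -0.35 after SDS and -0.48, -0.295 and 0.28 before SDS. The part of muscle or fat content in these differences was not tested. As in the fat list, the median difference of the muscle list was smaller within the Cy3 arrays (-0.0756) than within the Cy5 arrays (-0.728). It lay between -0.728 and -0.232 without each array in turn, nearest 0 without after-SDS array 3. Of its 30 members, 0 were lower at an unadjusted p under 0.05 (0.603% of all genes), and 0 to 11 without each array, the most without after-SDS array 2.

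Among muscle genes, Actn3, the alpha-actinin of fast fibres, had ratios of -2.88, -0.89, -3.43 and -0.21 after SDS and 0.00, -0.60 and -0.14 before SDS (difference -1.62, SE 0.81). The after-SDS ratios spanned over 3 log2 units and included one within the before-SDS range. Myoz1 and Myl1, components of the sarcomere, each had a difference of -0.83 (SE 0.39 and 0.40). Acta1, skeletal muscle actin, had -0.70, -0.20, -1.35 and -0.13 after SDS and -1.09, 0.12 and 0.51 before SDS (difference -0.38, 95% interval -1.43 to 0.68). Hspb3, a small heat shock protein of muscle, met the rule for a lower ratio with SDS only, with -0.36, -0.33, -0.74 and -0.46 after SDS and -0.13, 0.18 and 0.23 before SDS (difference -0.57, SE 0.15).

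**Figure D3:**
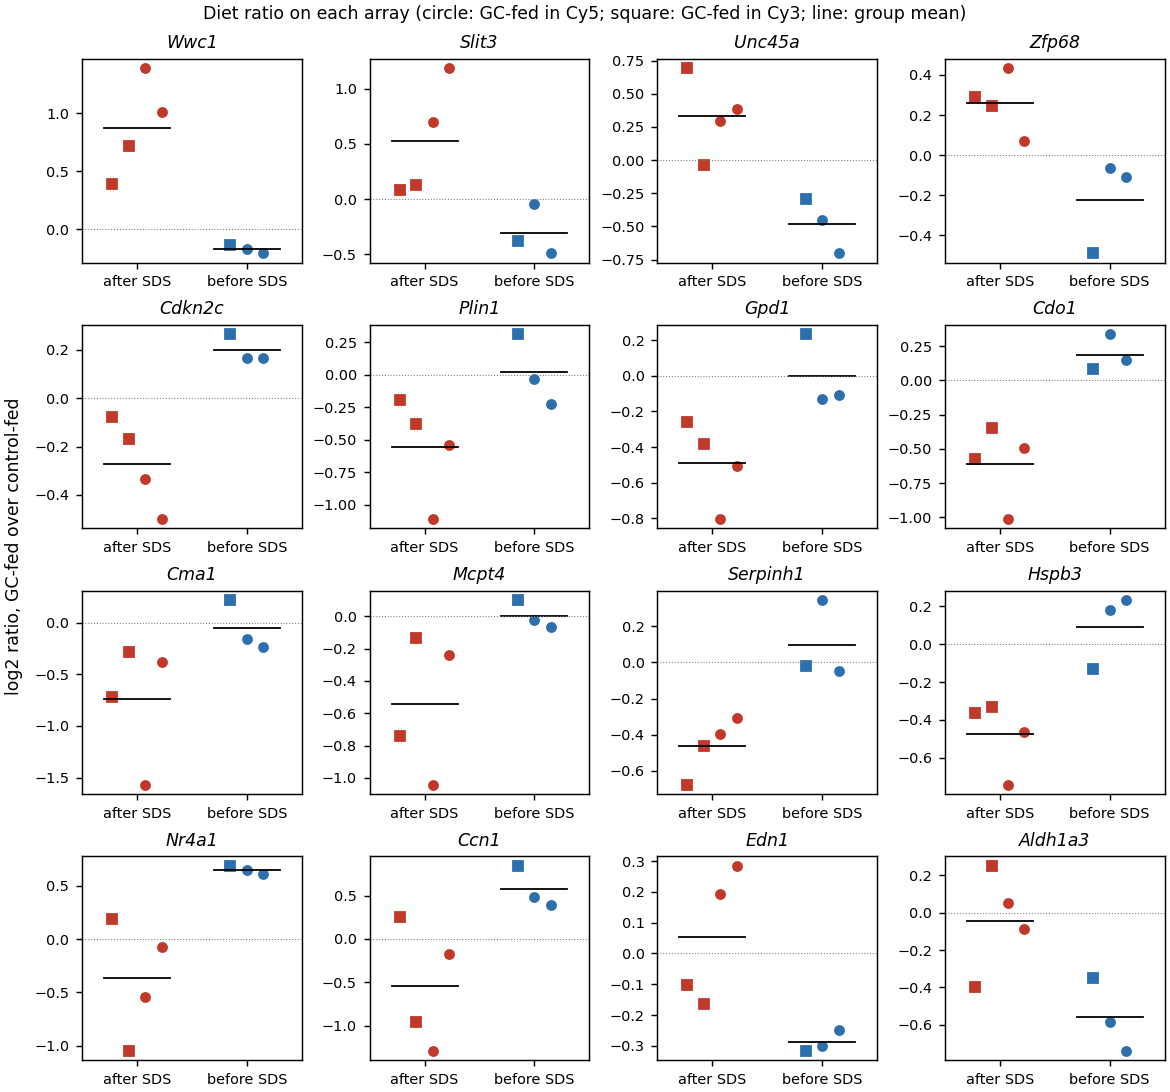
Diet ratio (log2, GC-fed over control-fed) on each array for 16 genes, with the 4 after-SDS arrays left and the 3 before-SDS arrays right; circles have the GC-fed sample in Cy5, squares in Cy3, lines are group means, and the vertical scale differs between panels. Wwc1 and Slit3 lie higher after SDS, the fat, mast cell and muscle genes lower, and Nr4a1 and Edn1 have before-SDS ratios close together at 0.61 to 0.69 and at -0.32 to -0.25.

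Mast cell genes also had lower ratios after SDS. Mast cells store proteases in granules and release them on activation. All 12 tested members of the mast cell list had a difference below 0 (51.5% of all genes did), with a median of -0.246. At an unadjusted p under 0.05, 2 of 12 were lower (0.603% of all genes). On all 4 after-SDS arrays, 9 of 12 had ratios below 0 (4.62% of all genes). In 5 of 12 the after-SDS ratios lay wholly below the before-SDS ratios (1.05% of all genes). The count at an unadjusted p under 0.05 was 0 to 7 without each array in turn, the most without after-SDS array 4. Cma1, mast cell chymase, had ratios of -0.72, -0.28, -1.57 and -0.38 after SDS and 0.22, -0.15 and -0.23 before SDS (difference -0.76, SE 0.28; limma, adjusted p = 0.9998). Mcpt4, a second chymase, had -0.74, -0.13, -1.04 and -0.24 after SDS and 0.10, -0.02 and -0.07 before SDS (difference -0.57, SE 0.23). Neither gene overlapped between the groups, and second probes gave -0.70 (SE 0.24) for Cma1 and -0.61 (SE 0.20) for Mcpt4.

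Cpa3, carboxypeptidase A3, had a difference of -0.51 (SE 0.26), with its after-SDS array 4 at -0.05 and its before-SDS array 3 at -0.25. Kit, the stem cell factor receptor, had -0.13, -0.11, -0.18 and -0.12 after SDS and 0.04, -0.07 and 0.03 before SDS (difference -0.14, 95% interval -0.34 to 0.07). The median ratio over the list was -0.154, -0.189, -0.708 and -0.114 after SDS and 0.0279, -0.0223 and -0.046 before SDS. All 4 after-SDS medians were lower, and array 3 stood far below the rest; without it the median difference was -0.13, and the range without each array was -0.416 to -0.13. The 250 bases before the starts of both chymase genes are shown because both had lower ratios after SDS; capitals mark TATAAA. Windows are on the minus strand of GRCm38.p6, chr14:55944676-55944925 for Cma1 and chr14:56062311-56062560 for Mcpt4.
Cma1: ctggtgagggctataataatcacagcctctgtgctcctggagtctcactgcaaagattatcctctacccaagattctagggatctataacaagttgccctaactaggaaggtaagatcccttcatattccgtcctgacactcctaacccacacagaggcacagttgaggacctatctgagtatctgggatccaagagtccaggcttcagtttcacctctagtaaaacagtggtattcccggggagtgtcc
Mcpt4: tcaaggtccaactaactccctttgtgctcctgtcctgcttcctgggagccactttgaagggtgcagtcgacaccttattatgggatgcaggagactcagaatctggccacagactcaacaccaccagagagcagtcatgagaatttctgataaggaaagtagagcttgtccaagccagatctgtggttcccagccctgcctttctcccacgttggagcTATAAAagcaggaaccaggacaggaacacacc
Mcpt4 held TATAAA 32 bases before its start, and none of the motifs was found in the Cma1 window.

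Immediate early genes are transcribed within minutes of a stimulus. One of them, Nr4a1, which encodes an orphan nuclear receptor, had ratios of 0.19, -1.05, -0.54 and -0.07 after SDS and 0.69, 0.65 and 0.61 before SDS. The before-SDS ratios agreed closely, all after-SDS ratios were lower, and the difference was -1.01 (SE 0.29, 95% interval -1.71 to -0.31; limma, adjusted p = 0.9998), with -1.12 in Cy3 and -0.94 in Cy5. Ccn1, a matrix-associated growth factor response protein singled out after its values were seen, had 0.25, -0.95, -1.29 and -0.18 after SDS and 0.84, 0.48 and 0.40 before SDS (difference -1.18, SE 0.36). Both genes had no overlap between the groups. Fosb, an AP-1 subunit, had 0.01, -0.30, -0.40 and 0.46 after SDS and 0.95, 1.30 and 0.19 before SDS (difference -0.87, SE 0.32). Fosl1, a related AP-1 subunit, differed by -0.26 (SE 0.11). Both AP-1 genes were dim, with Fosb well above background in 10 of 14 channels and Fosl1 in 11. Their mean log2 intensities in the diet and SDS groups were 7.69 to 8.73 for Fosb and 7.58 to 7.74 for Fosl1. In the list of heat shock and immediate early genes, 16 of 26 tested differed by less than 0, near the 51.5% of all genes, with a median of -0.103. In this list 3 were lower at an unadjusted p under 0.05 (0.603% of all genes), and 2 had after-SDS ratios wholly below the before-SDS ratios (1.05% of all genes). Without each array in turn the median lay between -0.201 and 0.0518, above 0 without before-SDS array 1, and the count at an unadjusted p under 0.05 between 0 and 7.

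The windows before Nr4a1 and Ccn1 are shown because both had lower ratios after SDS; capitals mark TGACG, here on the other strand and so printed as CGTCA, and TATAAA. They lie on GRCm38.p6 at chr15:101266596-101266845, plus strand, for Nr4a1 and at chr3:145649986-145650235, minus strand, for Ccn1.
Nr4a1: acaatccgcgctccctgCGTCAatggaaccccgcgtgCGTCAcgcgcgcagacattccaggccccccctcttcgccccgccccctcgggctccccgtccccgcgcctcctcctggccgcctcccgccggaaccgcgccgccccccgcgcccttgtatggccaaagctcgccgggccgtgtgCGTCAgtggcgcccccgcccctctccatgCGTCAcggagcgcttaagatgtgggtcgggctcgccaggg
Ccn1: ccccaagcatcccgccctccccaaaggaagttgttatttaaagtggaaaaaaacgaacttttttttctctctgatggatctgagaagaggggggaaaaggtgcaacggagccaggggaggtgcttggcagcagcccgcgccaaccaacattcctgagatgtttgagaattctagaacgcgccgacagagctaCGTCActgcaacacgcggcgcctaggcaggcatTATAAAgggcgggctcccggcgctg
Nr4a1 held 4 TGACG matches, at 233, 213, 69 and 40 bases before the start, and 45 of 32851 promoter windows (0.137%) held 4 or more. Ccn1 held 1 TGACG match, 58 bases before the start, and TATAAA at 25 bases before it.

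Edn1, endothelin-1, a vasoconstrictor peptide, had ratios of -0.10, -0.17, 0.19 and 0.29 after SDS and -0.32, -0.30 and -0.25 before SDS. All its before-SDS ratios lay below all its after-SDS ratios (difference 0.38, SE 0.11, 95% interval 0.13 to 0.63; limma, adjusted p = 0.9998). Aldh1a3, which makes retinoic acid, had -0.40, 0.25, 0.05 and -0.09 after SDS and -0.35, -0.59 and -0.74 before SDS (difference 0.50, SE 0.18; a second probe 0.18, SE 0.10). One after-SDS ratio, on array 1, lay within the before-SDS range. Mt2, a metallothionein that binds zinc, differed by 0.47 (SE 0.18).

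Cdkn2c, the cell cycle inhibitor p18, turned in the other direction, with ratios of -0.08, -0.17, -0.33 and -0.50 after SDS and 0.27, 0.17 and 0.17 before SDS. All ratios after SDS were below 0 and all before SDS above it (difference -0.51, SE 0.10; a second probe -0.48, SE 0.11). Gpr155, a lysosomal membrane protein, had -0.03, -0.24, -0.18 and -0.16 after SDS and 0.31, 0.19 and 0.13 before SDS (difference -0.38, SE 0.10; a second probe -0.14, SE 0.09). Serpinh1, the collagen chaperone HSP47, had -0.68, -0.46, -0.40 and -0.31 after SDS and -0.02, 0.35 and -0.05 before SDS (difference -0.52, SE 0.13). Of 31 tested collagen and matrix genes, 16 had a difference below 0 (51.5% of all genes did), and the list's median difference was -0.0102. That median depended on after-SDS array 4: it was -0.245 without this array and -0.363 with its sign turned. The list's median ratio was -0.227, -0.114, -0.196 and 0.567 after SDS and 0.171, -0.187 and 0.238 before SDS. For Ghr, the growth hormone receptor, probes disagreed: the chosen probe gave -0.38 (SE 0.14), 2 others gave -0.31 and -0.22, and the remaining ones 0.25 and 0.52.

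Barrier genes varied widely between arrays after SDS, and none passed the test. Filaggrin, loricrin and involucrin build the cornified envelope that transglutaminase 1 crosslinks. Of 36 tested cornified envelope genes, 30 had a difference above 0 (48.5% of all genes did) and the median was 0.282, but 0 were higher at an unadjusted p under 0.05 (0.609% of all genes) and in none were the groups free of overlap. The median ratio over the list was 0.756, 0.535, 0.499 and -0.594 after SDS and -0.15, 0.362 and -0.0168 before SDS. After-SDS arrays 1 to 3 were above all before-SDS arrays and array 4 was below all of them. The median difference was 0.66 without array 4 and 0.617 with its sign turned. Within the Cy3 arrays it was 0.652. Within the Cy5 arrays it was -0.316, which is the same comparison as leaving out before-SDS array 1.

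Flg, filaggrin, had ratios of 1.82, 0.64, 0.55 and -1.10 after SDS and -0.15, 0.61 and 0.42 before SDS, with a difference of 0.08 (95% interval -1.36 to 1.51). Lor, loricrin, had 1.90, 0.75, 0.69 and -1.15 after SDS and -0.51, 0.59 and 0.40 before SDS (difference 0.30, 95% interval -1.31 to 1.90). Krt10, the keratin of suprabasal cells, had 2.84, 0.61, 0.55 and -1.07 after SDS and -0.29, 0.59 and 0.86 before SDS (difference 0.21, 95% interval -1.75 to 2.17). In all 3 genes the after-SDS arrays held both the highest and the lowest ratio, and the intervals allow a change of over 2-fold in either direction. Tgm1, transglutaminase 1, had 0.50, 0.66, 0.65 and -0.54 after SDS and -0.02, -0.14 and 0.11 before SDS (difference 0.28, 95% interval -0.40 to 0.97). Ivl, involucrin, differed by 0.23 (95% interval -0.56 to 1.02), and Cnfn, cornifelin, by 0.57 (95% interval -0.12 to 1.27). The suprabasal list had 23 of 24 above 0 (48.5% of all genes), with a median of 0.206. Its median was 0.575 without after-SDS array 4 and 0.569 with that array turned. Within the Cy3 arrays it was 0.75. Within the Cy5 arrays it was -0.194, which is the same comparison as leaving out before-SDS array 1. Klk7, a protease of shedding, differed by 0.28 (SE 0.21), and Spink5, an inhibitor of such proteases, by 0.45 (SE 0.42).

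The median differences of the lipid and junction lists were nearer 0 than that of the cornified envelope list, though single genes varied. Without after-SDS array 4 those of the epidermal lipid and cholesterol lists were 0.34 and 0.313. Of 34 tested ceramide and sphingolipid genes, 20 had a difference above 0 (48.5% of all genes did) and the median was 0.026. At an unadjusted p under 0.05 there were 0 in either direction (1.21% of all genes). Ugcg, the glucosylceramide synthase of the fed lipid, had ratios of 0.05, 0.30, 0.10 and -0.18 after SDS and 0.02, 0.03 and 0.01 before SDS. The before-SDS ratios were all near 0, and the difference of 0.03 had an interval of -0.26 to 0.32. Cers3, a ceramide synthase of the epidermis, had no probe that carried its name. Fa2h, which hydroxylates the fatty acids of ceramides, had 1.55, 0.79, 0.19 and -0.10 after SDS and 0.34, 0.46 and -0.39 before SDS (difference 0.33, 95% interval -0.39 to 1.06). Elovl4 and Elovl1, which lengthen fatty acids for ceramides, differed by 0.12 (SE 0.36) and 0.45 (SE 0.22), and the epoxide hydrolase Ephx3 by 0.31 (SE 0.15). Differences above 0, found for 48.5% of all genes, were found for 20 of 27 epidermal lipid barrier genes (median 0.0844), 17 of 25 cholesterol synthesis genes (median 0.0683) and 15 of 21 tight junction genes (median 0.0541). For the epidermal lipid list the median difference was 0.418 within the Cy3 arrays and -0.203 within the Cy5 arrays. For the ceramide list it was 0.21 and -0.115, and for the cholesterol list 0.343 and -0.139, in the same order. The epidermal lipid list had median ratios of 0.47, 0.452, 0.313 and -0.396 after SDS and 0.125, 0.208 and 0.0323 before SDS. The cholesterol list had 0.712, 0.294, 0.355 and -0.405 after SDS and 0.192, 0.178 and 0.0656 before SDS. In both, after-SDS array 3, with the GC-fed sample in Cy5, had the sign of arrays 1 and 2. Dye, after-SDS array 4 and before-SDS array 1 cannot be told apart in these sign changes. Cldn1, the main epidermal claudin, had 0.13, 0.58, 0.58 and -0.30 after SDS and 0.19, 0.03 and -0.18 before SDS (difference 0.20, 95% interval -0.35 to 0.74). Before SDS, 14 of the 25 cholesterol genes had GC-fed over control-fed ratios above 0 on all 3 arrays (9.29% of all genes).

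**Figure D4:**
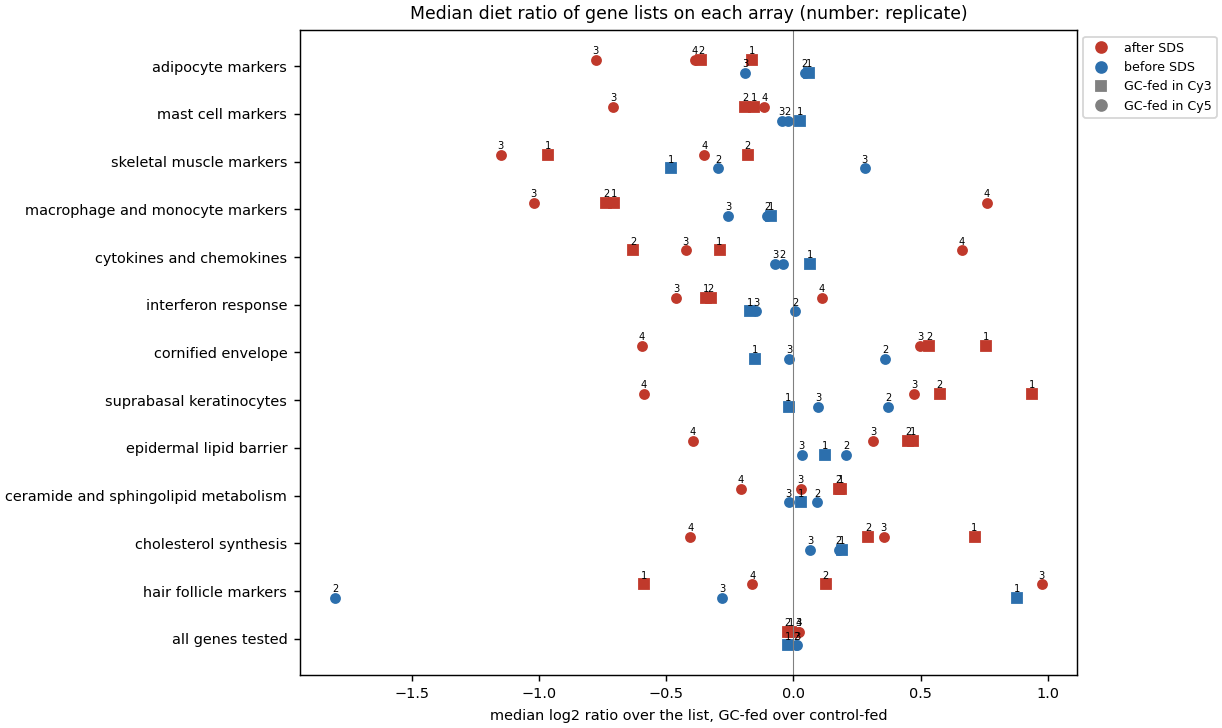
Median diet ratio (log2, GC-fed over control-fed) over 12 gene lists and over all genes tested, for each after-SDS array (red, upper row of each list) and before-SDS array (blue, lower row); squares have the GC-fed sample in Cy3, circles in Cy5, and numbers are replicates. The adipocyte and mast cell medians after SDS are all below 0, while after-SDS array 4 stands opposite to arrays 1 to 3 for macrophage, cytokine, cornified envelope and suprabasal lists.

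Myeloid genes had ratios of opposite sign on after-SDS array 4 and on after-SDS arrays 1 to 3. Macrophages and neutrophils enter irritated skin and release cytokines such as IL-1beta. Of 24 tested macrophage and monocyte markers, 22 had a difference below 0 (51.5% of all genes did), with a median of -0.185. At an unadjusted p under 0.05, 0 were lower (0.603% of all genes). The median ratio over the list was -0.703, -0.735, -1.02 and 0.761 after SDS and -0.0876, -0.103 and -0.255 before SDS. After-SDS arrays 1 to 3 were below all before-SDS arrays and array 4 above all of them. The median difference was -0.691 without array 4 and -0.636 with its sign turned, and it was above 0 without after-SDS array 3 (0.176) or before-SDS array 1. Within the Cy3 arrays it was -0.652 and within the Cy5 arrays 0.0868. Blood cell markers ran alongside. The median over 5 erythrocyte markers was -0.685, -1.04, -1.23 and 0.801 after SDS and -0.122, 0.159 and -0.166 before SDS. The median over 13 neutrophil markers was -0.136, -0.661, -0.808 and 0.891 after SDS and 0.057, -0.182 and -0.0546 before SDS. Both lists had array 4 above 0 and arrays 1 to 3 below it, and the part of blood content in the myeloid ratios was not tested. Adgre1, a surface receptor of macrophages, had ratios of -1.23, -1.13, -0.58 and 1.06 after SDS and 0.28, 0.36 and 0.06 before SDS (difference -0.57, 95% interval -1.66 to 0.53). Mpeg1, the pore-forming protein perforin-2, had -1.26, -1.39, -1.69 and 1.26 after SDS and 0.14, 0.12 and -0.17 before SDS (difference -0.70, 95% interval -2.32 to 0.91). Il1b had -2.14 to -0.96 on arrays 1 to 3 and 1.08 on array 4 after SDS and 0.93, 0.01 and -0.16 before SDS (difference -1.24, 95% interval -3.17 to 0.70). In each, arrays 1 to 3 after SDS were below the before-SDS range and array 4 above it.

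Without after-SDS array 4, 56 genes passed for the difference, 54 lower and 2 higher, against 0 of 17083 with it (limma, lowest adjusted p = 0.00766). All 54 had a ratio above 0 on the array left out, where 7887 of all 17083 genes were below 0. The 54 genes passed only without that array, so its opposite sign follows largely from how they were chosen. They held 5 of the 24 tested members of the macrophage and monocyte list and 3 of the 35 of the cytokine list, against 56 of all 17083 genes. Of the 56, 45 were in no list, among them Clec4e and Cybb. Mpeg1 differed by -1.57 (SE 0.13; limma, adjusted p = 0.0123) and Il1b by -2.24 (SE 0.28; limma, adjusted p = 0.0393) in that fit. With the sign of array 4 turned instead, 107 genes passed, 100 lower and 7 higher, and 47 genes passed in both fits, which is 83.9% of the 56 and 43.9% of the 107. Among the 56, singled out after their values were seen, were Clec4e, a C-type lectin receptor (-1.98, -2.34, -2.67 and 1.81 after SDS; 0.66, 0.05 and 0.34 before SDS), Cybb, the gp91 subunit of the phagocyte oxidase (-1.61, -1.64, -2.01 and 1.68 after SDS; 0.42, 0.20 and -0.19 before SDS), and Lyz2, lysozyme (-2.24, -2.36, -1.72 and 2.24 after SDS; -0.42, 0.44 and 0.09 before SDS). None of the adipocyte, mast cell or muscle list members was among the 56.

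Cytokines and chemokines had 25 of 35 below 0 (51.5% of all genes), with a median of -0.153. Their median ratios were -0.29, -0.629, -0.422 and 0.663 after SDS and 0.0672, -0.0421 and -0.0708 before SDS. Their median difference was -0.531 without after-SDS array 4, -0.523 with that array turned and 0.043 without after-SDS array 3, and it was -0.57 within the Cy3 arrays and -0.00473 within the Cy5 arrays. Interferon response genes had 26 of 37 below 0 (51.5% of all genes; median -0.104), 2 lower at an unadjusted p under 0.05 (0.603% of all genes) and 2 with after-SDS ratios wholly below the before-SDS ratios (1.05%). Without each array in turn the median lay between -0.234 and 0.0578, above 0 without after-SDS array 3, and the count at an unadjusted p under 0.05 between 1 and 9, the most without after-SDS array 4. Psmb9, an immunoproteasome subunit, differed by -0.27 (SE 0.11). Isg15, a ubiquitin-like interferon target, had overlapping ratios in both groups, with -0.34, -0.52, -0.50 and 0.07 after SDS and -0.47, -0.25 and -0.30 before SDS (difference 0.05, 95% interval -0.31 to 0.42).

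Ifi27l2a, an interferon-inducible protein, was lower in GC-fed skin on all 7 arrays, by -2.03, -0.85, -5.08 and -6.10 after SDS and by -0.84, -1.07 and -1.61 before SDS. The lowest ratios were those of after-SDS arrays 3 and 4, both with the GC-fed sample in Cy5 (difference -2.79, SE 0.78; -0.60 in Cy3 and -4.25 in Cy5; a second probe -1.97, SE 0.50). H2-Eb1, a class II histocompatibility gene, had single arrays far from 0, at 3.45 on after-SDS array 4 and -2.52 on before-SDS array 2 (difference 1.55, 95% interval -1.34 to 4.43). Hair follicle markers had 28 of 29 above 0 (48.5% of all genes) and a median difference of 0.449. However, the list's median ratio was -0.586, 0.127, 0.976 and -0.161 after SDS and 0.88, -1.8 and -0.279 before SDS. Its difference was -1.15 within the Cy3 arrays and 1.42 within the Cy5 arrays, and it was -0.333 with scale normalization. Cell cycle genes had 33 of 38 above 0 (48.5% of all genes), with a median of 0.101 that was -0.0679 in Cy3 and 0.214 in Cy5.

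Levels in the 4 groups, as log2 intensity after normalization between arrays, show in which skin the values were high. Cornified envelope and suprabasal markers had median log2 intensities of 12.96 to 14.24 and 11.95 to 13.16 over the 14 samples, and Krt10 and Flg were well above background in all 14, which fits the labelled tissue. Wwc1 averaged 10.33 ± 0.29 in GC-fed and 9.45 ± 0.27 in control-fed skin after SDS (SD, n = 4 each), and 9.57 ± 0.22 in GC-fed and 9.75 ± 0.19 in control-fed skin before SDS (SD, n = 3 each). The highest group was GC-fed skin after SDS. Gpd1 averaged 13.87 ± 0.11 in GC-fed and 14.36 ± 0.16 in control-fed skin after SDS, and 13.82 ± 0.13 in GC-fed and 13.82 ± 0.07 in control-fed skin before SDS. Plin1 averaged 12.21 ± 0.22 in GC-fed and 12.76 ± 0.23 in control-fed skin after SDS, and 12.36 ± 0.22 in GC-fed and 12.34 ± 0.06 in control-fed skin before SDS. For both fat genes control-fed skin after SDS had the highest mean.

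The adipocyte list as a whole had a median level of 11.96 to 12.34 in GC-fed and 12.51 to 12.94 in control-fed skin after SDS, and 12.24 to 12.49 in GC-fed and 12.23 to 12.54 in control-fed skin before SDS. After SDS the diets did not overlap, while control-fed skin after SDS overlapped control-fed skin before SDS. Skeletal muscle markers were at 12.49 to 13.58 in GC-fed and 13.76 to 14.32 in control-fed skin after SDS, and at 12.9 to 13.85 in GC-fed and 13.56 to 13.72 in control-fed skin before SDS. Cma1 averaged 12.56 ± 0.43 in GC-fed and 13.30 ± 0.27 in control-fed skin after SDS, and 12.89 ± 0.25 in GC-fed and 12.95 ± 0.09 in control-fed skin before SDS. Serpinh1 averaged 15.10 ± 0.26 in GC-fed and 15.56 ± 0.19 in control-fed skin, against 14.66 ± 0.12 in GC-fed and 14.56 ± 0.12 in control-fed skin before SDS. Nr4a1 averaged 12.64 ± 0.40 in GC-fed and 13.01 ± 0.28 in control-fed skin after SDS, and 12.95 ± 0.39 in GC-fed and 12.30 ± 0.35 in control-fed skin before SDS, so control-fed skin before SDS was the lowest group. Slide and SDS cannot be told apart in these levels.

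**Figure D5:**
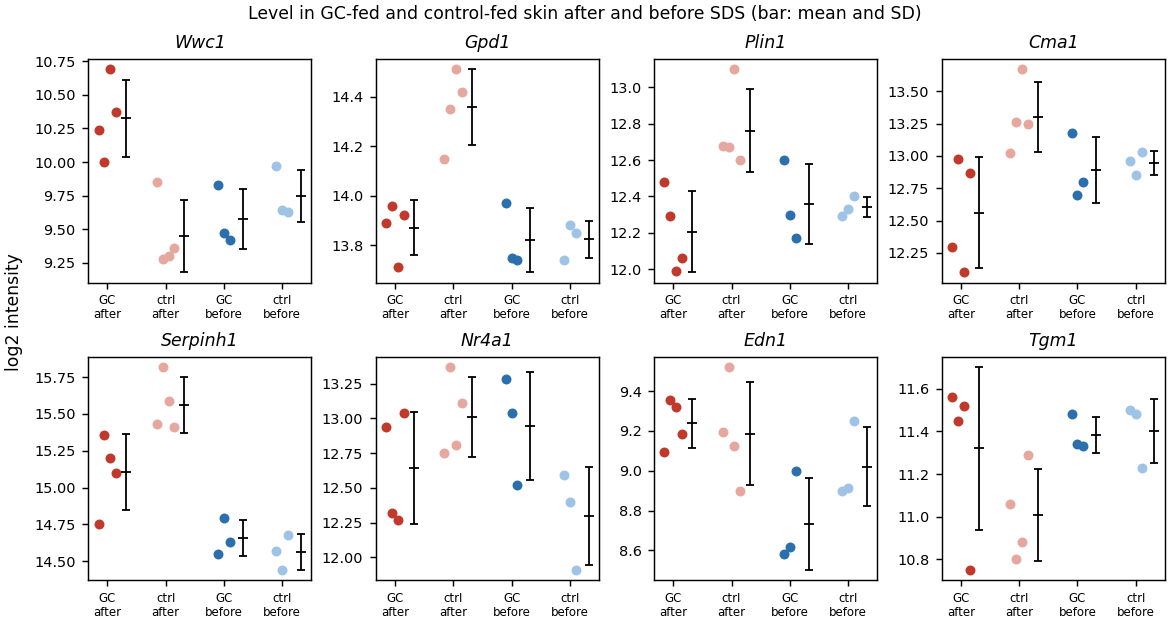
Log2 intensity of 8 genes in GC-fed and control-fed skin after SDS (4 samples each) and before SDS (3 samples each); points are samples, bars the mean and SD, and the vertical axes start above 0 and differ between panels. Wwc1 is highest in GC-fed skin after SDS (10.33), and Gpd1 and Plin1 are highest in control-fed skin after SDS (14.36 and 12.76).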

How the data were processed

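Spot intensity in both channels came from Agilent Feature Extraction 9.1.3.1, per the file headers. A gene table deposited by the authors, with log2 diet ratios made after low intensities were set to a floor, served as an alternative; 18 of its columns were not used. Mean signals were corrected with limma 3.58.1 (R 4.3.3; normexp, offset 50) and normalized by loess within arrays. Control and flagged spots were left out. Kept were 25117 of 41174 probes, those well above background in 3 or more of 14 channels, and the brightest probe stood for a gene. The fit (lmFit, eBayes; 4 residual and 2.7 prior degrees of freedom) had a coefficient for each group and a dye term, with Benjamini-Hochberg adjustment at 0.05. It was tested on simulated data. Between 48.5% and 62.8% of 43379 spots were well above background per channel, and the number of arrays limits precision.

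Named genes needed an ordinary symbol and signal in 10 of 14 channels. They were the 10 smallest p in each direction, up to 4 per sign class, up to 3 per list and a fixed set; others are marked as singled out. The members and the 33 lists (734 members tested) were chosen with earlier results of these data known. Replicate numbers were not used as pairs in the main fit. The ratios' deviations correlated at -0.0868, -0.045 and 0.187 for numbers 1 to 3, and at -0.0867 to 0.155 for unlike numbers. These few values cannot settle whether the arrays were paired.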

Additional observations from a re-analysis of the deposited data

Results flagged for a closer look

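In 10 of 104 sets of 4 after-SDS values, 1 array stood apart from the other 3 by Dixon's criterion at the 95% level. For 1 set alone, chance does so in about 1 in 20. The 104 sets cannot be held to that rate, since they share the same 4 arrays and partly the same genes. Lyz2, Cybb and Clec4e had also been singled out from the fit without array 4. After-SDS array 4 stood apart for Tgm1 (-0.537), Mpeg1 (1.26), Lyz2 (2.24), Cybb (1.68), Clec4e (1.81) and Ogfrl1 (0.767). It also did so for the median ratios of the oxidative stress (0.25) and collagen and matrix (0.567) lists. After-SDS array 1 stood apart for Mt2 (-0.353), and array 3 for the mast cell list (-0.708).

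In 7 named genes every after-SDS ratio lay on one side of 0 and every before-SDS ratio on the other. All 7 had been named for a small p of this same difference, so this is not a separate result. Of all genes tested, 68 (0.398%) had after-SDS ratios above 0 and before-SDS ratios below it, and 41 (0.24%) the reverse. The differences of the 7 genes, none of which passed in limma's fit, were 1.11 for Wwc1, 0.924 for Slit3, 0.505 for Zfp68, 0.346 for Emd, -0.506 for Cdkn2c, -0.816 for Cdo1 and -0.377 for Gpr155. A second Slit3 probe gave -0.26.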

How the results depend on the processing

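The count of genes past the threshold for the difference was 0 in the fit of all 7 arrays (207 at an unadjusted p under 0.05) and under the other settings tried, with 2 exceptions: 107 with the sign of after-SDS array 4 turned, and 56 without that array; leaving out each array in turn gave 0 to 56. The replicate block, with numbers not known to pair the arrays, gave 0 genes (limma, lowest adjusted p = 0.0765). It had 1184 genes at an unadjusted p under 0.05 and put Isg15 at -0.0358 and H2-Eb1 at -0.351. Genes with a ratio with SDS only numbered 10 with Agilent's processed signals, 2 with scale normalization, 292 with array 4 turned, 1 at a ratio limit of 0.15 and 1 at 0.5, and 6 to 362 with an array left out. Genes with a ratio without SDS only numbered 1 with processed signals, 1 with scale normalization and 0 to 48 with an array left out. Turned genes numbered 28 with processed signals, 2 with scale normalization, 21 with array 4 turned, 16 at a limit of 0.15, 0 at 0.5 and 4 to 24 with an array left out. Shared genes numbered 2 with processed signals, 9 with array 4 turned and 1 to 10 with an array left out. Genes whose after-SDS ratios all lay above the before-SDS ratios numbered 723 with array 4 turned and 285 to 917 with an array left out, and those below 1093 and 335 to 1382; fewer arrays make such rules easier to meet. The after minus before difference in SD was 0.122 without background correction (exact two-sided permutation test, p = 0.0571) and 0.1 to 0.145 with an array left out.

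Single genes changed sign in few alternatives: Slit3 with the authors' deposited ratios (-0.257); Ifi27l2a (0.871) and H2-Eb1 (-0.525) with array 4 turned; and Cyp3a13 (-0.0981), Isg15 (-0.327), Flg (-0.044), Lor (-0.108) and Krt10 (-0.0233) with before-SDS array 1 turned. With each array left out, ranges that crossed 0 were -0.0921 to 0.195 for Isg15, -1.05 to 0.1 for Acta1, -0.792 to 0.708 for Flg, -0.725 to 1.01 for Lor, -0.0369 to 0.599 for Ivl, -0.991 to 0.918 for Krt10, -0.308 to 0.869 for Spink5, -0.0283 to 0.412 for Cldn1, -0.0581 to 0.121 for Ugcg, -0.386 to 0.46 for Elovl4, -1.12 to 0.0276 for Adgre1 and -1.93 to 0.0477 for Lyz2. The cause of these changes was not tested. With quantile normalization of each channel, none of the 272 group means of the levels shifted by more than its SD (at most 0.141). Agilent signal over background limited the dim probes only: 17083 genes of the array's names could be tested.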
